A study of Mus musculus with 6 samples.

Results

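The genes described here are 50 genes of the mitotic spindle, the kinetochore and cytokinesis. They were chosen by gene symbol, from a list of names, out of 54838 mouse Ensembl gene identifiers counted in every library. The list was made with earlier results of these data known, so shares of it set beside all genes are descriptions only. All 50 symbols matched 1 identifier each, and all 50 passed the filter on low counts. RNA was sequenced from glomeruli isolated from 3-week-old mice, in 3 libraries labelled CTRL (genotype wild type, animals 157, 162 and 163) and 3 labelled KO (genotype bPIX -/-, animals 146, 147 and 148). bPIX is the product of Arhgef7, an exchange factor for Cdc42 and Rac1, and per the series description its loss was specific to podocytes, the epithelial cells that wrap the glomerular capillaries. The sources used here name neither the driver of the deletion nor the strain, sex or method of isolating glomeruli, and other glomerular and tubule cells of the KO animals keep the gene. Values below follow the library order CTRL 157, 162, 163 and KO 146, 147, 148, and "rose" means higher in the libraries labelled KO with an adjusted p below 0.05.

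Each deposited file is named for an animal of the opposite group to its sample label, for all 6 libraries. Groups were taken from the sample labels, so with the file names in their place every difference below would change sign and keep its size. The targeted gene does not settle this: Arhgef7 stood at 91.9, 94.0 and 88.4 CPM (the depth-normalised read count, here on library sizes scaled by edgeR's TMM method) in the libraries labelled CTRL and at 132.7, 89.5 and 85.8 CPM in those labelled KO, and the groups overlapped. The log2 fold change was 0.17 (edgeR adjusted p = 0.544), and a whole-gene count cannot show whether an exon is missing. Gene counts ran from 39841396 to 51917945 per library. Tubule RNA was present in every library, with 20 proximal tubule markers summing to 28514 to 31194 CPM in CTRL and 14518 to 23949 CPM in KO. The 15 podocyte markers summed to far less, 1312.6 to 1518 CPM in CTRL and 2624.6 to 8619.3 CPM in KO. All 15 podocyte, 15 glomerular endothelial and 15 mesangial and smooth muscle markers were detected, each with a positive fold change and none called by edgeR. At an unadjusted p below 0.05 by edgeR there were 14, 15 and 13 (17.5% of tested genes passed with a positive value). DESeq2 called 14, 15 and 10 higher (11.7% of tested genes). All KO libraries lay above all CTRL libraries for 15 podocyte, 15 glomerular endothelial and 14 mesangial and smooth muscle markers (21.8% of tested genes). They lay below for 17 of the 20 proximal tubule markers (19.6% of tested genes). Library KO 146 stood furthest apart, with the highest podocyte, endothelial and mesangial and the lowest tubule marker levels. The 10 parietal epithelial markers, also of the glomerulus, did not follow. Of these, 3 had a positive fold change (49.3% of tested genes), and edgeR called 0. Their mean log2 CPM was lowest in KO 146, at 4.439.

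Mitosis separates replicated chromosomes on a microtubule spindle and ends in cytokinesis, when a contractile ring cuts the cell. Kinetochores assemble on centromeres and hold the microtubules, kinesin motors and microtubule-associated proteins build the spindle, and a checkpoint delays anaphase until every kinetochore is attached. Many of these genes are transcribed mainly in late cell cycle, under the MuvB, B-Myb and FoxM1 regulators, so their RNA is low in tissue that has stopped dividing. Podocytes are known as cells that leave the cell cycle on maturation, while tubule, endothelial and mesangial cells still divide in the kidney of a young mouse. In bulk RNA, a change in the number of dividing cells and a change in RNA per dividing cell cannot be told apart.

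Promoter sequences are shown first, because textbook regulation of late cell cycle genes runs through a few short elements near the start of transcription. The CHR element (cell cycle genes homology region, letters TTTGAA or TTCGAA) binds the MuvB core, and the CCAAT box binds NF-Y. Sequences came from a RefSeq promoter table on GRCm38.p6, which held 47 entries for 44 members. Aurkb, Incenp, Kif20a, Smc4, Spc24 and Tpx2 were not in it. The stretches below are the 150 bases before the annotated start, 5′ to 3′ on the gene's own strand. Capitals mark CHR and CCAAT letters on either strand. A CHR on the opposite strand reads TTCAAA here, and a CCAAT box there reads ATTGG. The set was chosen after the values were seen. It holds the called member of smallest p from each role group where that member had an entry, followed by the 3 members whose CTRL and KO values overlapped. Prc1 has a pair of entries, of which the one with a CHR is shown.
Top2a: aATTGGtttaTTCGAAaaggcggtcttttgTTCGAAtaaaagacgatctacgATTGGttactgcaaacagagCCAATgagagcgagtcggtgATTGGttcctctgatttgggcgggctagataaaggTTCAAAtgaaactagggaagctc
Prc1: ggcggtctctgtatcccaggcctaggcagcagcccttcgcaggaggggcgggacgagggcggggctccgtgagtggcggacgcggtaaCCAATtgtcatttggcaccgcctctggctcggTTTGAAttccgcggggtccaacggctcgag
Kif11: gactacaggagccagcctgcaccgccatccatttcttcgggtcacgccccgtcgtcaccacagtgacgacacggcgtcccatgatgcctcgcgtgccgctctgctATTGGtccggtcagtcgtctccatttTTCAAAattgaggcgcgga
Bub1b: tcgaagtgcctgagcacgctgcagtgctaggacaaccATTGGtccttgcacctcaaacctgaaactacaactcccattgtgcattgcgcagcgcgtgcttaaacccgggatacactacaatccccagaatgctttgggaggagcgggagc
Cenpf: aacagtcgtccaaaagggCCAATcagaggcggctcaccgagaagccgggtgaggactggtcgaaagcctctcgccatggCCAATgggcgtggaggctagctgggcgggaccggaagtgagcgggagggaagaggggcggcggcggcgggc
Aspm: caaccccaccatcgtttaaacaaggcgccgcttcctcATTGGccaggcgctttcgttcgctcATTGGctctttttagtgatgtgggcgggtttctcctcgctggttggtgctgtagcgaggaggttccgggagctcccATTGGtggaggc
Spc25: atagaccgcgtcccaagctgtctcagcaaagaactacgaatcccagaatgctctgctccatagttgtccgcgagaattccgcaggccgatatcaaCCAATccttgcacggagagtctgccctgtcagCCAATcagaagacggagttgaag
Cit: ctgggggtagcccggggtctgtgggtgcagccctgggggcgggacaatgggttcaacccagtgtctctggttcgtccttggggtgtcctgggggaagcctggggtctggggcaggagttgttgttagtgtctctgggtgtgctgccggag
Kif20b: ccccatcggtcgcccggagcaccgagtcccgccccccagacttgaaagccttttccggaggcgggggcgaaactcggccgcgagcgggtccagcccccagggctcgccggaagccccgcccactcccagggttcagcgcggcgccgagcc
Their positions are chr11:99024190-99024339 on the minus strand for Top2a, chr7:80294326-80294475 on the plus strand for Prc1, chr19:37376232-37376381 on the plus strand for Kif11, chr2:118598061-118598210 on the plus strand for Bub1b, chr1:189688087-189688236 on the minus strand for Cenpf, chr1:139454623-139454772 on the plus strand for Aspm, chr2:69206214-69206363 on the minus strand for Spc25, chr5:115845506-115845655 on the plus strand for Cit and chr19:34922208-34922357 on the plus strand for Kif20b.

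Of the 47 member promoters, 18 (38.3%) held a CHR within the 250 bases before the start, against 12.7% of 15472 promoters of tested genes and 17.1% of 32851 promoters in the table. A CCAAT box was found in 33 (70.2%), against 34.5% and 33.8%. CHR and CCAAT together were found in 16 (34.0%), against 4.7% and 6.0%. Top2a carried 4 CHR and 6 CCAAT matches in its 250 bases, 7 of which lie in capitals above. Neither element occurred before the RefSeq start of Cit or Kif20b, and Spc25 had 2 CCAAT boxes and no CHR. For Cit that start lies inside the gene as annotated by GENCODE, which begins at 115845278. Sequence before the GENCODE start of Cit was not searched as such. Other members, among them Kif2c and Kif4, also had a RefSeq start inside the GENCODE gene. For 41 of the 47 entries, 20 bases shortly after the start were found in a GENCODE transcript of the gene. They were not found for Kif11, Smc2, Kif23, Kif2c, Aurka and an entry of Sgo2a, which were all counted here. CHR was present in 42.4% of 33 promoters of called members and in 28.6% of 14 promoters of members not called, and CCAAT in 69.7% and 71.4%. Anln, Ndc80, Nuf2, Ncaph, Knl1, Melk and Nusap1 rose with neither element in this window. An E2F motif (TTTGGCGC or TTTCCCGC, both strands) was found in 2 member promoters (4.3%) and in 2.1% of promoters of tested genes. Median GC content was 59.6% in member promoters and 58.8% in those of tested genes. A match is a string of letters and not a measured binding site.

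**Figure D1:**
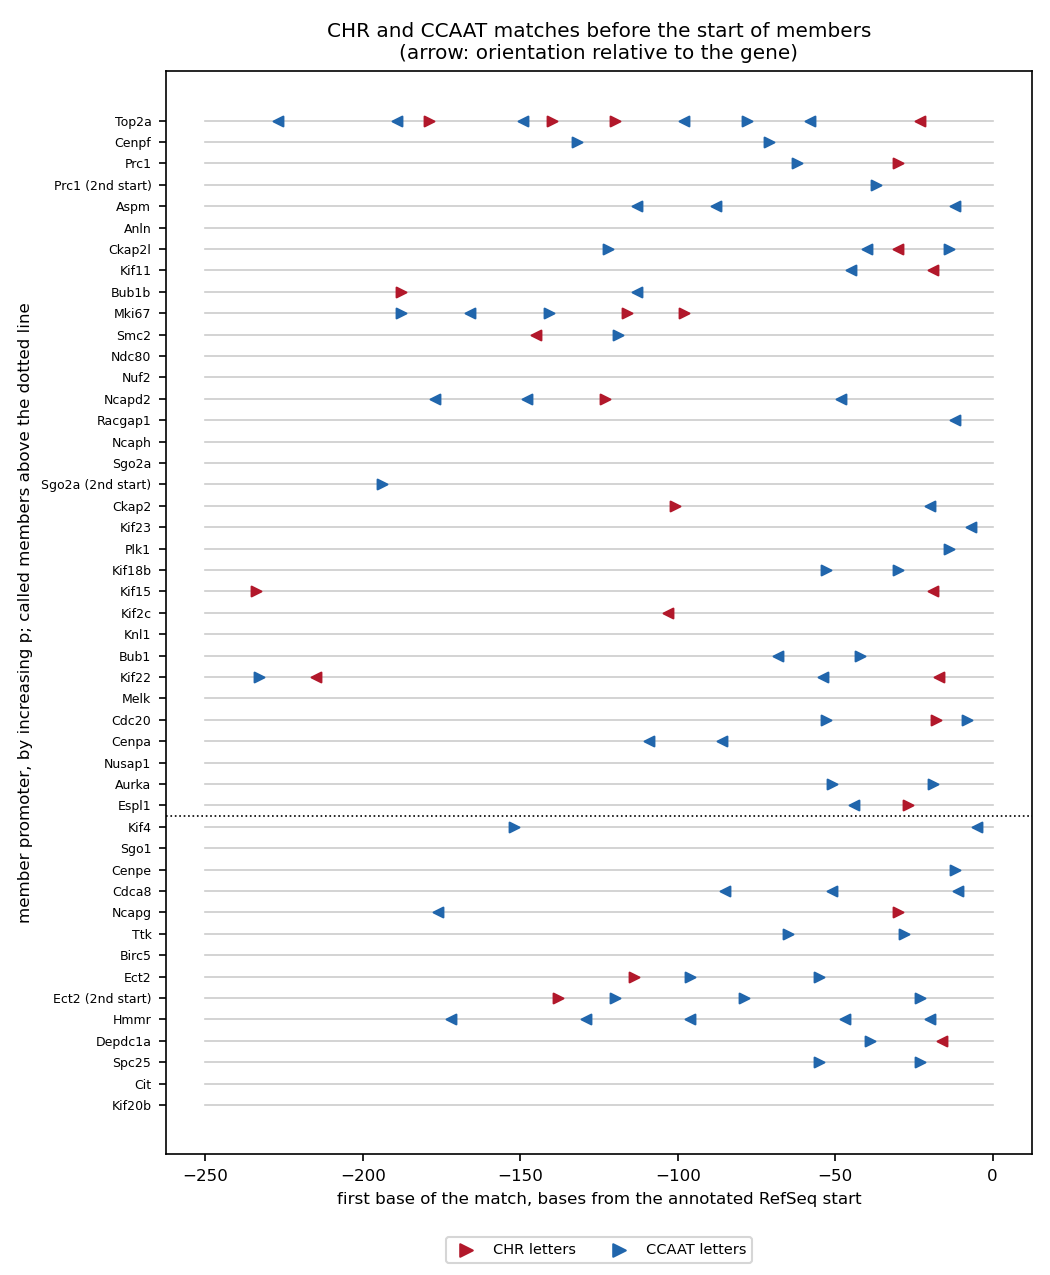
Position of CHR letters (red) and CCAAT letters (blue) in the 250 bases before the RefSeq start of 47 member promoters, with arrows for orientation and members ordered by increasing edgeR p. Most matches lie within the last 150 bases, and the bottom rows, Cit and Kif20b, hold none.

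Most of the mitotic genes rose. Of the 50 members, 35 rose and 0 fell, where 0.591% of 17086 tested genes were called higher and 0.421% lower by the same edgeR test. The median log2 fold change over the members was 1.24, a 2.36-fold difference, and over all tested genes it was -0.01. Members with a log2 fold change above 1 numbered 38, while 10.4% of tested genes passed that value. Called members ran from 1.64-fold (Ncapd2) to 3.41-fold (Kif15), with edgeR adjusted p values of 0.00612 to 0.0493. The 3 KO libraries lay above the 3 CTRL libraries for 47 members, against 21.8% of tested genes, and the groups overlapped for Spc25, Kif20b and Cit. As a share of raw counts the members summed to 266.1, 304.7 and 303.0 CPM in CTRL and 591.6, 620.8 and 607.4 CPM in KO. The 95% Wilson intervals of these shares lay between 261.4 and 310.1 in CTRL and between 585.0 and 628.5 in KO, and cover counting error only.

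**Figure D2:**
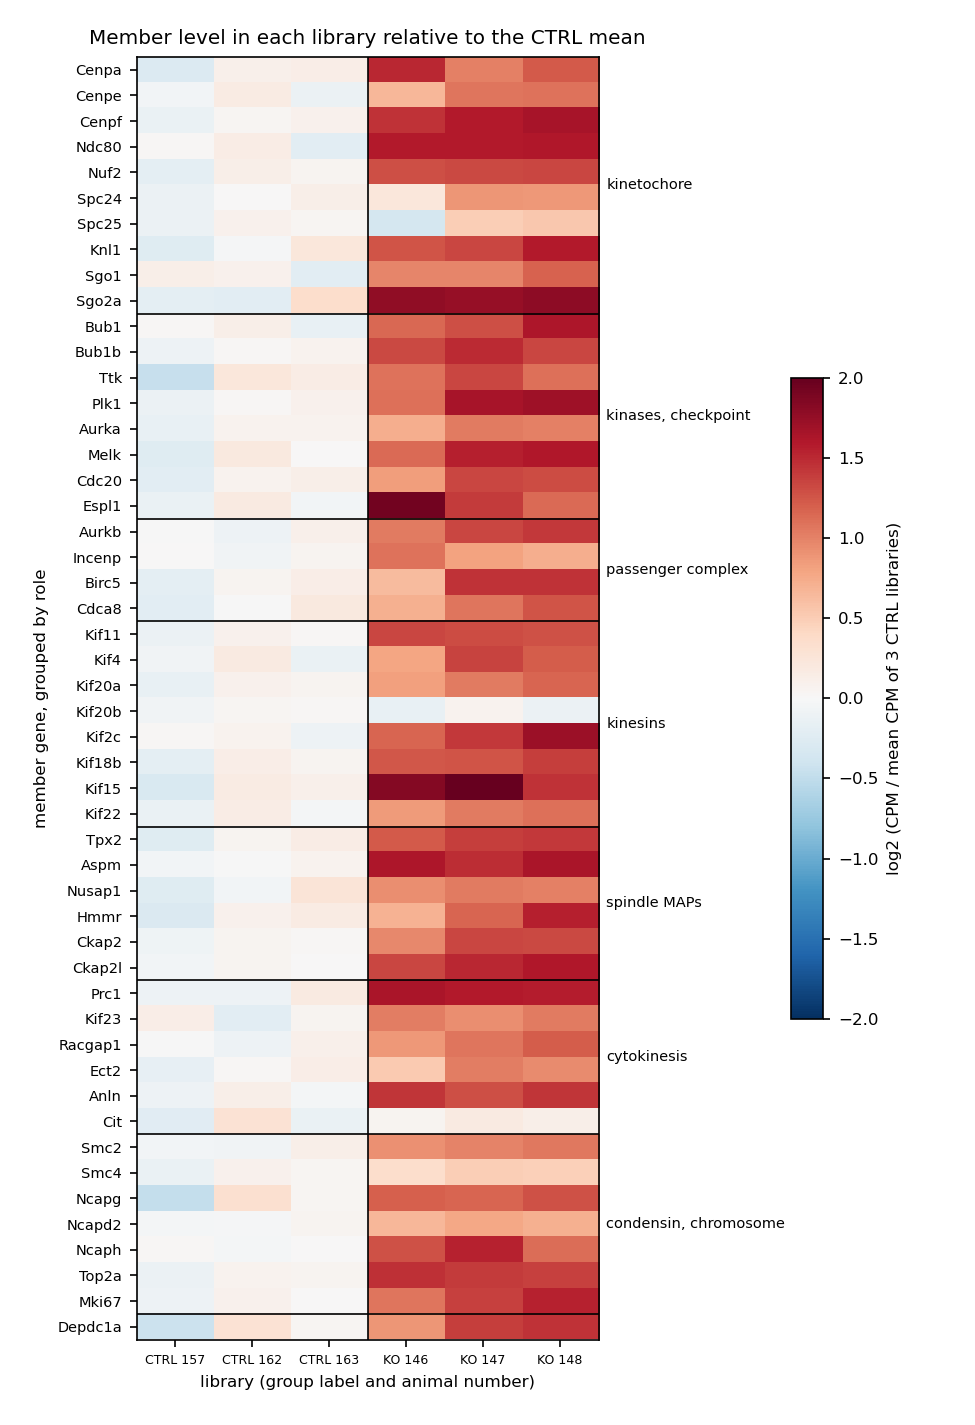
Log2 ratio of each member's CPM to its mean in the 3 CTRL libraries, in columns by library and in blocks by role. The 3 KO columns are red for most members, and Spc25, Kif20b, Cit and Smc4 are among the pale rows.

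Of 10 kinetochore and centromere genes, 6 rose and 0 fell, with a median log2 fold change of 1.29. Cenpf, a large protein of the outer kinetochore (ENSMUSG00000026605, chromosome 1, 189640606 to 189688086, minus strand, GRCm38), stood at 4.99, 5.59 and 5.76 CPM in CTRL and 14.8, 16.3 and 17.1 CPM in KO. Every KO library lay above every CTRL library, and the log2 fold change was 1.56 (SE 0.12, edgeR adjusted p = 0.00891). Ndc80, which gives its name to the complex that grips microtubule ends, stood at 1.30, 1.42 and 1.11 CPM in CTRL and 3.83, 3.81 and 3.87 CPM in KO (log2 fold change 1.59, SE 0.17, edgeR adjusted p = 0.0249). Its partner Nuf2 stood at 2.04, 2.55 and 2.42 CPM in CTRL and 5.69, 5.84 and 5.92 CPM in KO (1.32, SE 0.15, adjusted p = 0.0295). For both genes the KO libraries lay closer together than the CTRL libraries. Sgo2a, a shugoshin that protects centromeric cohesion, had the largest kinetochore value (1.75) from few reads, with 16, 14 and 24 counts in CTRL and 86, 59 and 67 in KO. Knl1, the scaffold for checkpoint proteins, rose by 1.40 and Cenpa, the centromeric histone H3 variant, by 1.26.

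Spc24 and Spc25 complete the Ndc80 complex at its chromosome end, and neither passed the test. Spc25 stood at 32.8, 37.7 and 36.4 CPM in CTRL and 28.0, 49.9 and 51.8 CPM in KO. KO 146 lay below all CTRL libraries and KO 147 and 148 above them, so the groups overlapped (log2 fold change 0.28, SE 0.23, edgeR adjusted p = 0.444). Without KO 146 the value was 0.51 (edgeR adjusted p = 0.00466), with a proximal tubule covariate 0.99 (0.0187) and with a glomerular covariate 1.02 (0.0027), and over all alternatives the adjusted p ran from 0.0027 to 0.732. Spc24 was likewise lowest of the KO libraries in KO 146, at 5.41, 5.90 and 6.37 CPM in CTRL and 6.92, 10.9 and 10.8 CPM in KO (0.69, adjusted p = 0.0875). Sgo1, the other shugoshin, and Cenpe, a kinetochore kinesin, had values of 1.05 and 0.95 with separated groups (adjusted p = 0.0614 for each).

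Among 8 genes of mitotic kinases, the checkpoint and anaphase onset, 7 rose and 0 fell, with a median log2 fold change of 1.37. Bub1b, the checkpoint protein BubR1 (ENSMUSG00000040084, chromosome 2, 118598211 to 118641591, plus strand), stood at 2.46, 2.68 and 2.75 CPM in CTRL and 6.60, 7.40 and 6.64 CPM in KO (log2 fold change 1.39, SE 0.14, edgeR adjusted p = 0.0242). Plk1, the polo kinase that drives mitotic entry and spindle assembly, stood at 2.53, 2.78 and 2.91 CPM in CTRL and 5.89, 8.59 and 8.88 CPM in KO (1.504, SE 0.20, adjusted p = 0.0357). Bub1, a checkpoint kinase, stood at 1.46, 1.55 and 1.29 CPM in CTRL and 3.18, 3.50 and 4.38 CPM in KO (1.36, SE 0.19, adjusted p = 0.0373). All 3 were separated between groups, with KO 146 the lowest KO library for each. Melk, a kinase of dividing cells, rose by 1.44, and Cdc20, the activator of the anaphase-promoting complex, by 1.17. Aurka, the spindle pole kinase, had the value nearest 0 in this group and still rose, from 3.62, 4.23 and 4.25 CPM in CTRL to 6.69, 8.32 and 8.11 CPM in KO (0.93, SE 0.15, adjusted p = 0.0492). Espl1, the separase that cuts cohesin, went against the order of the others, at 1.65, 2.05 and 1.74 CPM in CTRL and 6.87, 4.75 and 3.96 CPM in KO, with KO 146 the highest (1.52, adjusted p = 0.0493). Ttk, the checkpoint kinase Mps1, had a value of 1.18 with separated groups and did not pass (adjusted p = 0.0704).

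The 4 genes of the chromosomal passenger complex, which corrects faulty attachments and later marks the cleavage site, had a median of 1.13, and 2 of them rose. Aurkb, its kinase, stood at 2.25, 2.10 and 2.44 CPM in CTRL and 4.64, 5.74 and 6.03 CPM in KO (log2 fold change 1.27, SE 0.17, edgeR adjusted p = 0.0357). Incenp, its scaffold, stood at 7.20, 6.82 and 7.41 CPM in CTRL and 15.2, 12.5 and 11.8 CPM in KO (0.88, SE 0.13, adjusted p = 0.0402). The KO libraries of these partners ran in opposite order, Aurkb lowest and Incenp highest in KO 146. Birc5 (survivin) stood at 4.04, 4.83 and 5.08 CPM in CTRL and 7.23, 12.7 and 12.7 CPM in KO, and Cdca8 (borealin) at 3.76, 4.33 and 5.04 CPM and 7.16, 9.24 and 10.4 CPM. Both had separated groups and missed the threshold, with values of 1.22 (adjusted p = 0.0727) and 1.03 (adjusted p = 0.0655). They passed without KO 146 and with either covariate.

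Mitotic kinesins had a median of 1.21, and 6 of 8 rose. Kif11, the motor that pushes spindle poles apart (ENSMUSG00000012443, chromosome 19, 37376403 to 37421859, plus strand), stood at 3.20, 3.70 and 3.52 CPM in CTRL and 8.75, 8.56 and 8.44 CPM in KO (log2 fold change 1.30, SE 0.12, edgeR adjusted p = 0.0225). Kif18b, which shortens astral microtubules, stood at 1.02, 1.29 and 1.22 CPM in CTRL and 2.79, 2.82 and 3.06 CPM in KO (1.30, SE 0.17, adjusted p = 0.0357). Kif15, a spindle motor that can stand in for Kif11, had the largest fold change of all members, from 22, 27 and 30 counts in CTRL to 133, 104 and 78 counts in KO (1.77, SE 0.24, adjusted p = 0.0357). Kif2c, a microtubule depolymerase, rose by 1.45, Kif20a, which acts in the cleavage furrow, by 1.01, and Kif22, a chromosome arm motor, by 1.001. Kif4, a chromosome-bound motor, had a value of 1.13 (adjusted p = 0.0594). Kif20b did not follow its family: it stood at 13.03, 14.01 and 13.8 CPM in CTRL and 12.2, 14.3 and 12.5 CPM in KO (-0.06, SE 0.10, adjusted p = 0.70). Its sign turned positive with library totals as the scaling (0.07) and with either covariate (0.01 and 0.01).

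Spindle microtubule-associated proteins rose in 5 of 6 cases, with a median of 1.28. Aspm, which organises spindle poles (ENSMUSG00000033952, chromosome 1, 139454772 to 139494091, plus strand), stood at 2.14, 2.20 and 2.33 CPM in CTRL and 6.79, 6.20 and 6.93 CPM in KO (log2 fold change 1.58, SE 0.14, edgeR adjusted p = 0.0171). Ckap2l stood at 2.69, 2.89 and 2.80 CPM in CTRL and 7.04, 7.98 and 8.47 CPM in KO (1.49, SE 0.14, adjusted p = 0.0211). Tpx2, the activator of Aurka on the spindle, stood at 4.51, 5.51 and 5.92 CPM in CTRL and 12.4, 13.9 and 14.2 CPM in KO (1.34, SE 0.14, adjusted p = 0.0249). In each of the 3 the KO libraries differed from one another by far less than from CTRL. Ckap2 rose by 1.22 and Nusap1, a microtubule bundler near chromosomes, by 0.99, from 4.34, 4.99 and 6.14 CPM in CTRL to 9.78, 10.6 and 10.4 CPM in KO. Hmmr, a spindle pole protein, stood at 9.01, 12.4 and 16.2 CPM against 4.55, 5.88 and 6.21 CPM in CTRL, and did not pass (1.18, SE 0.24, adjusted p = 0.0731).

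Of 6 genes of the central spindle and cytokinesis, 4 rose and 0 fell, with a median of 1.03. Prc1, which bundles antiparallel microtubules of the central spindle (ENSMUSG00000038943, chromosome 7, 80294450 to 80316259, plus strand), stood at 3.23, 3.25 and 3.95 CPM in CTRL and 10.8, 10.5 and 10.3 CPM in KO (log2 fold change 1.60, SE 0.13, edgeR adjusted p = 0.0151). Anln, the anillin of the contractile ring, stood at 3.76, 4.36 and 3.93 CPM in CTRL and 10.8, 9.82 and 10.9 CPM in KO (1.39, SE 0.12, adjusted p = 0.0189). Both centralspindlin subunits rose, Racgap1 by 1.06, from 7.34, 6.82 and 7.86 CPM to 13.4, 15.5 and 16.9 CPM, and Kif23 by 1.003. Ect2, the RhoA exchange factor that centralspindlin recruits, had a value of 0.85 with separated groups (adjusted p = 0.073). Cit, the citron kinase of the midbody, stood at 11.1, 15.9 and 11.8 CPM in CTRL and 13.5, 14.7 and 13.99 CPM in KO, so the KO range fell inside that of CTRL (0.12, SE 0.15, adjusted p = 0.617). Cit and Kif20b passed under none of the 13 alternatives.

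Condensin and mitotic chromosome genes rose in 5 of 7 cases, with a median of 1.21. Top2a, the topoisomerase that untangles sister DNA (ENSMUSG00000020914, chromosome 11, 98992943 to 99024189, minus strand), had the smallest adjusted p of all members, at 9.45, 10.7 and 10.6 CPM in CTRL and 28.4, 27.0 and 26.5 CPM in KO (log2 fold change 1.41, SE 0.092, edgeR adjusted p = 0.00612). Mki67, which coats mitotic chromosomes and is the usual marker of dividing cells, stood at 19.5, 22.4 and 21.04 CPM in CTRL and 44.1, 53.9 and 61.0 CPM in KO (1.34, SE 0.13, adjusted p = 0.0242). Both lay apart between groups, Top2a with KO 146 highest and Mki67 with KO 146 lowest. The condensin subunits were uneven: Ncaph rose by 1.32, Smc2 by 0.99 and Ncapd2 by 0.71, and Ncapg had a value of 1.21 (adjusted p = 0.0671). Smc2, a core ATPase, stood at 9.13, 9.001 and 10.2 CPM in CTRL and 17.7, 18.9 and 19.6 CPM in KO. Its partner Smc4 stood at 44.0, 51.0 and 49.7 CPM in CTRL and 61.8, 67.5 and 67.3 CPM in KO, a small separated difference (0.44, SE 0.087, adjusted p = 0.0717). Depdc1a, placed in no role group, had 28, 41 and 40 counts in CTRL and 95, 95 and 109 in KO (1.26, SE 0.27, adjusted p = 0.0753).

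**Figure D3:**
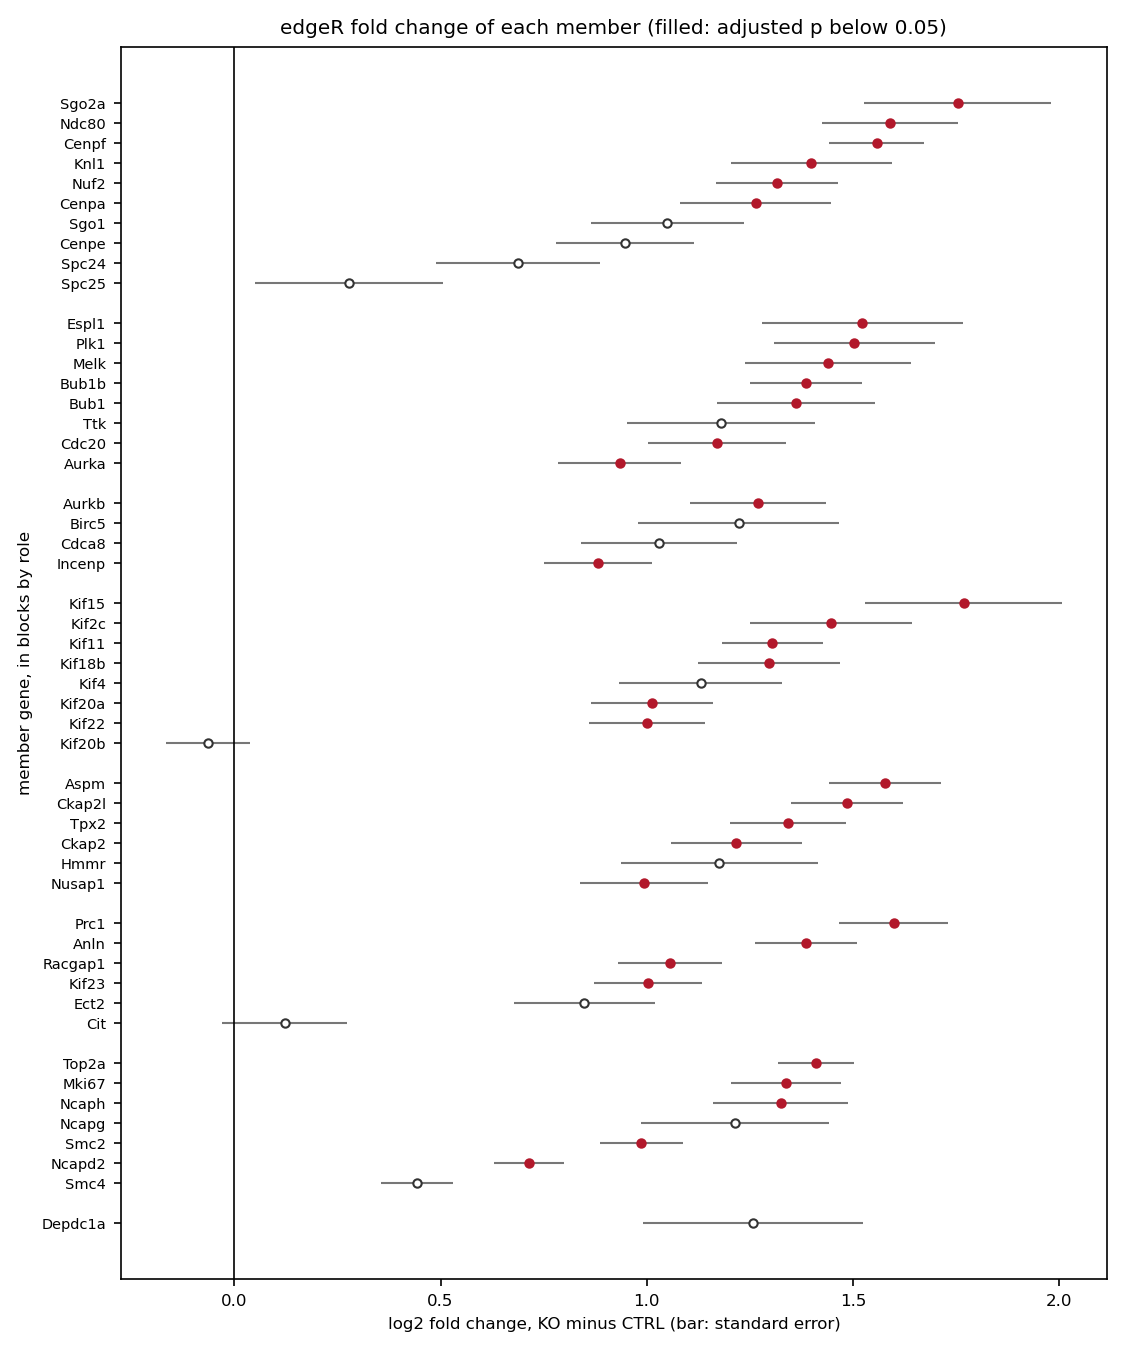
Log2 fold change of each of the 50 members (KO minus CTRL, edgeR) with its standard error, in blocks by role and filled where the adjusted p was below 0.05. All values are positive but that of Kif20b, and 38 exceed 1.

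Per kilobase of exon, the members spanned 0.057 to 11.2 CPM per kb in CTRL, with a median of 0.74, and 0.20 to 13.6 in KO, with a median of 1.64. By the union of annotated exons, Spc25 was the highest of the 50 in CTRL at 11.2, followed by Smc4 at 9.25, Cdc20 at 5.46 and Spc24 at 2.29, while Sgo2a (0.061) and Kif15 (0.057) were the lowest. This order depends on the length used: per kilobase of median transcript length Smc4 (63.8) stood above Spc25 (30.7), Kif20b (19.1) came next, Sgo2a (0.105) was the lowest and Kif15 ranked 44 of 50. Levels kept much of their order between groups (Spearman rho 0.97 over 50 members). Members of high level in CTRL tended to smaller fold changes (rho -0.63 over 50 members, and -0.62 per kilobase of median transcript length). That relation is a description across genes of the same libraries, and the CTRL level enters both measures. The lowest count of any member in any library was 14 and the median 240, and 8 members had a library under 50 counts (Ndc80, Sgo1, Sgo2a, Ttk, Kif18b, Kif15, Ncapg and Depdc1a). Their standard errors ran from 0.165 (Ndc80) to 0.27 (Depdc1a), and deeper members such as Espl1 (0.24) and Birc5 (0.24) had values in the same range.

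The KO libraries stood in different order for the mitotic members and for the podocyte, endothelial and mesangial markers. The median member stood 1.08, 1.30 and 1.30 log2 units above the CTRL mean in KO 146, 147 and 148. Podocyte markers stood 2.94, 1.51 and 0.998 above it, glomerular endothelial markers 2.53, 1.37 and 0.76, and mesangial and smooth muscle markers 2.59, 0.75 and 0.45. Parietal epithelial markers stood at -0.47, 0.03 and -0.05, and proximal tubule markers at -1.01, -0.43 and -0.27. The median coefficient of variation among the KO libraries was 11.5% for the members, 69.8% for podocyte, 63.7% for endothelial, 72.8% for mesangial and 25.3% for proximal tubule markers, and 16.6% for all tested genes. Among CTRL libraries the member value was 10.1%. KO 146 was the lowest KO library for 35 members and the highest for 6. Of 17 macrophage and leukocyte markers 0 were called by edgeR or DESeq2 (0 at an unadjusted p below 0.05), with summed levels of 88.0 to 102.6 CPM in CTRL and 81.3 to 104.4 CPM in KO. Erythroid markers summed to 755.4, 817.7 and 210.8 CPM in CTRL and 631.3, 475.4 and 367.0 CPM in KO, with 0 of 9 tested called by edgeR or DESeq2 (1 at an unadjusted p below 0.05), so the ranges overlapped. The share of counts from mitochondrial genes was 16.5% to 18.2% in CTRL and 11.9% to 19.3% in KO. No marker of these lists was at 0 in all libraries. Over all 17086 tested genes, 5011 had an unadjusted p below 0.05 by edgeR. The part of tissue makeup in the member values was not tested. The covariate fits below cannot separate it from genotype, because both marker means lay apart between the groups. The mean log2 CPM of the tubule markers, for instance, was 9.702 to 9.811 in CTRL and 8.719 to 9.432 in KO.

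**Figure D4:**
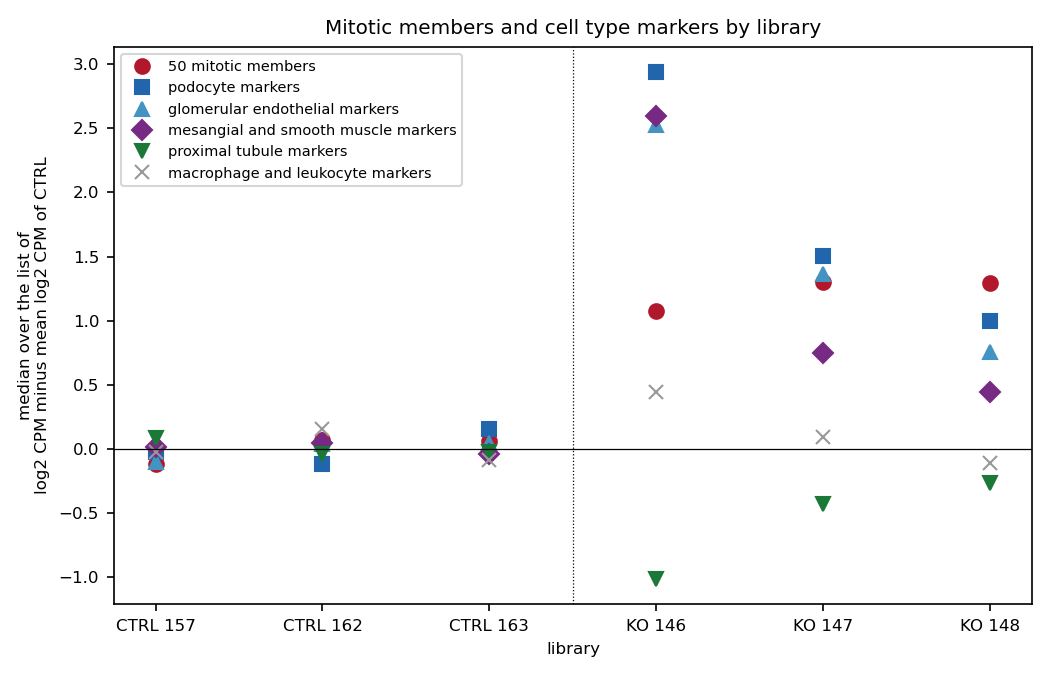
Median over each list of log2 CPM minus the CTRL mean, by library, for the 50 members and 5 marker lists. Members sit between 1.08 and 1.30 in the 3 KO libraries, while podocyte markers run from 2.94 in KO 146 to 0.998 in KO 148.

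Calls depended on which libraries were fitted, and fold changes much less. Without CTRL 157, CTRL 162 or KO 147, edgeR called 0 members (0.00569%, 0.0114% and 0.00574% of all tested genes were called higher), and without CTRL 163 it called Top2a alone (0.0284%). Without KO 146 it called 48 members higher (10.5% of genes) and without KO 148 46 (12.9%). Over these 6 fits the member median stayed between 1.14 and 1.31, and 49 of 50 members were positive in each. At an unadjusted p below 0.05, 47 members passed in the fit to all 6 libraries, where 17.5% of genes passed with a positive value. DESeq2 called 47 members higher (11.7% of genes) and limma-voom 31 (0.433%). Scaling by library totals gave 39 (0.667%), testing every gene of at least 1 count 46 (1.41%), and a floor of 1 CPM in 3 libraries 34 (0.725%). With the proximal tubule marker mean as a covariate 38 members were called (0.983% of genes, median 1.34), and with the glomerular marker mean 42 (1.45%, median 1.36). Espl1, Incenp and Kif15 lost their calls with either covariate, and Cenpa and Sgo2a with the tubule covariate. With the tubule covariate the value of Espl1 was 0.82 in place of 1.52 and that of Incenp 0.57 in place of 0.88. The same covariate gave 0.92 in place of 1.26 for Cenpa, 1.54 in place of 1.77 for Kif15 and 1.72 in place of 1.75 for Sgo2a.

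Other genes of cell division were taken as lists. Of 38 other regulators of G2 and mitosis, 13 rose and 0 fell, with a median log2 fold change of 1.10. Among them Kntc1, a checkpoint protein of the kinetochore corona, rose from 1.76 ± 0.08 to 4.799 ± 0.19 CPM (SD, n = 3 each, edgeR adjusted p = 0.0242) and Cep55, an abscission factor of the midbody, from 1.20 ± 0.04 to 3.78 ± 0.42 CPM (adjusted p = 0.0242). Cdk1, the kinase that drives entry into mitosis, and Ccna2, its cyclin A partner, rose by 1.27 each. Ube2s, an E2 enzyme of the anaphase-promoting complex, was the lowest of the list at 0.04. Of 32 genes of DNA replication and S phase, 8 rose and 0 fell, with a median of 0.59. Clspn, a replication checkpoint adaptor, rose by 1.74 and Mcm6, a subunit of the replicative helicase, by 0.74, while Mcm10 stood at -0.05.

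Of 19 genes of the inner kinetochore and the Mis12 complex, 2 rose, Nsl1 (1.30) and Cenpi (1.33), and 0 fell, with a median of 0.63 and Cenpx lowest at -0.22. Among 18 genes of the DREAM complex, FoxM1, B-Myb and the E2F factors, E2f8 (1.69), E2f1 (1.39) and Foxm1 (1.21) rose, 0 fell by edgeR, and the median was 0.13. Foxm1, the forkhead activator of late cell cycle genes, stood at 3.65, 5.64 and 4.72 CPM in CTRL and 9.38, 11.1 and 12.0 CPM in KO. Rbl2, the p130 subunit of DREAM in resting cells, had the lowest value of that list at -0.31 (edgeR adjusted p = 0.0787). It was called lower by DESeq2 (adjusted p = 0.0306) and by edgeR without KO 146 (adjusted p = 0.00902), and over all alternatives its adjusted p ran from 0.00902 to 0.324.

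Calls in these 4 lists depended on the libraries as those of the members did. Without CTRL 157, CTRL 162, CTRL 163 or KO 147, edgeR called 0 genes in each list. Without KO 146 it called 35 of 38 other G2 and mitosis regulators and 21 of 32 S phase genes higher. In that fit 11 of 19 inner kinetochore genes and 5 of 18 DREAM and E2F genes were called higher. Without KO 148 these counts were 27, 19, 6 and 6. DESeq2 called 35, 24, 8 and 6 higher. Calls over all tested genes grew as well: these 3 fits called 10.5%, 12.9% and 11.7% of genes higher, against 0.591% in the main fit.

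Subunits of the anaphase-promoting complex, the gamma-tubulin ring with augmin, and condensin II with cohesin gave 0 calls in either direction by edgeR. The 15 subunits of the anaphase-promoting complex had a median of -0.01 and ranged from -0.18 (Anapc7) to 0.23 (Anapc1 stood at 0.20), with 0 at an unadjusted p below 0.05 and 0 called by DESeq2 or limma-voom. For the 17 genes of the gamma-tubulin ring and augmin the median was 0.15, from -0.22 (Tubgcp4) to 0.63 (Haus8), with Haus3 at 0.47, 2 at an unadjusted p below 0.05, 1 called higher by DESeq2 and 0 by limma-voom. The 12 condensin II and cohesin genes had a median of 0.22, with Ncapg2, a condensin II subunit, at 0.94 (adjusted p = 0.0594), Smc1a at 0.33 and Wapl at -0.06, with 1 at an unadjusted p below 0.05, 1 called higher by DESeq2 and 0 by limma-voom. No test of the difference between these lists and the members was made.

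**Figure D5:**
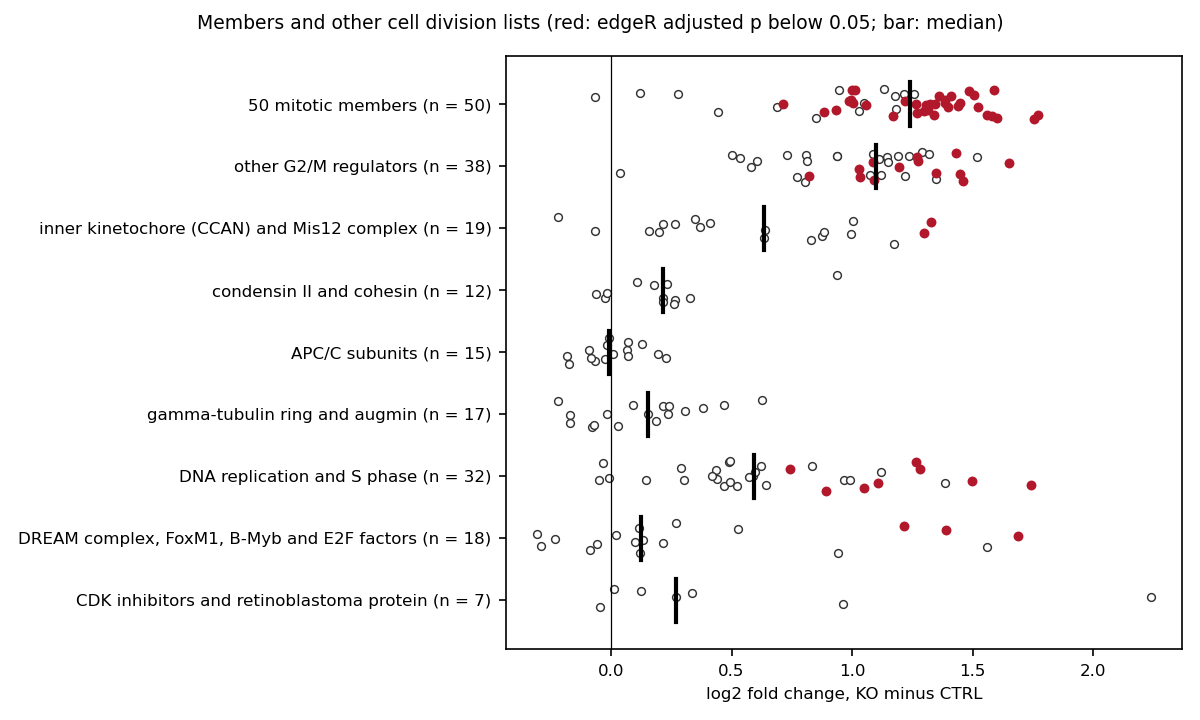
Log2 fold change (KO minus CTRL) of each tested gene in the 50 members and 8 other lists, red where edgeR's adjusted p was below 0.05 and with a bar at the list median. Medians run from 1.24 for the members and 1.10 for other G2 and mitosis regulators to -0.01 for subunits of the anaphase-promoting complex.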

How the data were processed

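Counts per gene were deposited by the authors as raw whole numbers, 1 file per library. The submitters' processing notes name DESeq2, HTSeq 0.11.1, STAR 2.6.0 and fastp 0.19.5 without their roles, and list as build GRCh37, a human assembly, although all identifiers are mouse. The annotation and strand setting are not stated, so reads of the 11 members that share exonic bases with an opposite-strand gene (such as Prc1 with Rccd1, and Sgo2a with Kctd18) cannot be assigned to 1 strand. The 5 closing lines that name no gene were left out. Of these, reads aligned to several places were 22.51% to 29.63% of records, so genes with near-identical copies may be undercounted.

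Names, positions and exon lengths came from GENCODE M21 on GRCm38, promoters from RefSeq on GRCm38.p6. In R 4.3.3, edgeR 4.0.16 was run with TMM scaling, filterByExpr (minimum count 10), and a robust quasi-likelihood F test of KO against CTRL without covariates. Benjamini-Hochberg adjustment covered all 17086 tested genes, and calls needed an adjusted p below 0.05. SE is the absolute log2 fold change over the root of F. Log list means used a prior count of 2. The code was tested on simulated data. DESeq2 1.42.0, limma-voom (limma 3.58.1), other scalings and filters, each library left out, and marker covariates were alternatives. Replicate pairs gave a chi-square per degree of freedom of 16.7 or more over genes with at least 50 summed counts, so no pair agreed within sampling noise. The value was 16.7 to 18.4 for CTRL pairs and 27.1 for KO 147 with KO 148. Against KO 146 it was 175.7 for KO 147 and 298.6 for KO 148. The series description counts 3 mice per group. Members, lists and tests were chosen with earlier results of these data known. Values in every library were given, by rule, for the 3 members of smallest p and the member nearest 0 in each role group. Of each other list the rule named the 2 genes of smallest p and the lowest gene, and others named were chosen after their values were seen.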

Additional observations from a re-analysis of the deposited data

How the results depend on the processing

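The count of 35 members called higher ran from 0 to 48 when 1 library was left out, and was 31 to 47 under the other 7 alternatives. No alternative called a member lower. The member median ran from 1.14 to 1.37. The number of all genes called, 173, was 2959 with DESeq2, 960 with every gene of at least 1 count tested, and 319 with the glomerular marker covariate, and ran from 2 to 3211 with 1 library left out. The cause was not tested. Over single members, 425 of 650 refits kept the side of the threshold, 154 lost a call and 71 gained one, with no called value changing sign. Scaling by library totals moved the median of all genes from -0.01 to 0.13 and that of the members to 1.37. For the other lists, the G2 and mitosis median ran from 0.96 to 1.35, that of S phase from 0.57 to 0.74, and that of the anaphase-promoting complex from -0.08 to 0.14. The medians of condensin II with cohesin (-0.08 to 0.36) and of the gamma-tubulin ring with augmin (-0.08 to 0.31) were negative with either covariate, and that of the DREAM and E2F list ran from 0.01 to 0.27. No paired analysis was possible because the animal numbers of the groups do not overlap. The 8 members with a library under 50 counts rest on few reads.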

Other observations

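Inhibitors of cyclin-dependent kinases, which hold cells out of division, were also measured, in a list with the retinoblastoma gene Rb1. Of 7 tested genes in it, Rb1 included, edgeR and limma-voom called 0. DESeq2 called 2 higher, where it called 11.7% of tested genes higher. By edgeR 4 had an unadjusted p below 0.05, as had 5011 of all 17086 tested genes. Cdkn1c, the p57 inhibitor characteristic of mature podocytes, stood at 57.5, 46.7 and 56.6 CPM in CTRL and 454.3, 199.0 and 105.7 CPM in KO (log2 fold change 2.24, edgeR adjusted p = 0.0755). Its KO libraries ran in the order of the podocyte markers, highest in KO 146. The log2 fold change was 1.499 without KO 146 (edgeR adjusted p = 0.0448), 0.37 with the proximal tubule covariate (0.699) and 0.30 with the glomerular covariate (0.555), and over all alternatives the adjusted p ran from 4.2e-05 to 0.699. Cdkn1a, the p21 inhibitor, stood at 6.55, 6.43 and 6.59 CPM in CTRL and 15.7, 10.7 and 11.7 CPM in KO, with separated groups (0.96, adjusted p = 0.0594). Rb1 was the lowest of the list at -0.04.

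Subunits that work in fixed proportion were not at even RNA levels per kilobase of exon. Spc25 over Ndc80 was 51.4 to 67.0 in CTRL and 14.9 to 27.3 in KO. Spc25 over Spc24 was 4.61 to 5.15 in CTRL and 3.27 to 3.89 in KO. Nuf2 over Ndc80 was nearer to even, at 1.61 to 2.24 in CTRL and 1.52 to 1.57 in KO, and its KO range also lay below that of CTRL. Smc4 over Smc2 was 5.07 to 5.95 in CTRL and 3.61 to 3.76 in KO, and Ncapd2 over Ncaph 3.88 to 4.16 and 2.35 to 3.04. The ranges overlapped for Racgap1 over Kif23 (1.46 to 1.71 in CTRL and 1.43 to 1.78 in KO). They also overlapped for Birc5 over Aurkb (1.55 to 1.99 and 1.35 to 1.91). Shifts in these ratios restate the fold changes given above. These ratios depend on the annotated exon lengths, which differ in level but not between libraries.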
